A study of Mus musculus with 6 samples.

Results

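Genes that act in the nucleus at the end of the canonical WNT pathway, together with genes that this pathway switches on to dampen or amplify itself, were examined in embryoid bodies at day 4 (EBs, aggregates of differentiating embryonic stem cells that pass, in suspension, through stages like those of gastrulation). The set was given as a list of 9 genes, found by symbol among the 23353 genes of the table: the effectors Ctnnb1, Lef1, Tcf7 and Tcf7l1, the feedback genes Axin2, Nkd1, Nkd2 and Znrf3, and the secreted amplifier Rspo3. All 9 were present and all 9 passed the filter on low values. EBs of the parental W9.5 mouse embryonic stem cell line (wildtype) were compared with EBs of EVX1-Δfs clone 14, a CRISPR-Cas9 derivative of W9.5 with a different small frameshift mutation on each allele of Evx1, a homeobox gene of the posterior primitive streak. Both groups were grown for 4 days in suspension in serum-containing medium lacking LIF, with 3 libraries per genotype. The mutant group is 1 clone, and the control is unedited parental cells rather than a clone that went through the same editing and picking, so a difference between clones and an effect of the mutation cannot be told apart.

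In the absence of a WNT signal, β-catenin (encoded by Ctnnb1) is marked for degradation by the destruction complex, which contains an AXIN protein. When WNT ligands engage their receptors, β-catenin escapes this complex, enters the nucleus and joins TCF/LEF factors on target genes. Among the targets are inhibitors of the pathway itself, so their transcripts are widely used as a readout of WNT activity. In the mouse embryo this pathway is needed to form the primitive streak and to maintain the posterior mesoderm that arises from it.

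The perturbation was introduced with a guide RNA against the homeobox of Evx1, shown here because it defines the mutant group. It matched chromosome 6 of the NCBIM37 assembly (that of mm9) at chr6:52265847-52265869 on the plus strand, inside an exon of Evx1. The protospacer is in lower case and the PAM in capitals.
Evx1 guide: ccagatgcgccgataccgcaCGG

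Sequences of 250 bases before RefSeq transcription starts are given for Lef1 and Nkd1, the members that fell, and for Axin2, the most commonly used readout of the pathway. They came from a RefSeq promoter table of build GRCm38.p6, and each was matched base for base to NCBIM37, whose positions are used. The table had 12 starts for 7 of the members. Rspo3 and Znrf3 had no entry. The core of the TCF/LEF motif, CTTTGA, was searched on both strands and is written in capitals where present (TCAAAG on the opposite strand). The first Lef1 start follows chr3:130812965-130813214 (plus strand), outside any annotated gene. A later Lef1 start follows chr3:130858962-130859211 (plus strand), within an intron of Lef1. The other Lef1 windows, chr3:130812991-130813240 and chr3:130815459-130815708, held no CTTTGA and are not printed. The Nkd1 start follows chr8:91051282-91051531 (plus strand), within an intron of the longest annotated Nkd1 transcript. The Axin2 start follows chr11:108781413-108781662 (plus strand), outside any annotated gene.
Lef1, first start: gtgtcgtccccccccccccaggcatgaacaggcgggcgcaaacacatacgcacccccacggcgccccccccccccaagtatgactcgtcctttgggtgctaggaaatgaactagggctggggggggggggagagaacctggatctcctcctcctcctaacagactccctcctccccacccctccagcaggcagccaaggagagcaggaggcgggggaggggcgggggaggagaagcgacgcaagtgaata
Lef1, later start: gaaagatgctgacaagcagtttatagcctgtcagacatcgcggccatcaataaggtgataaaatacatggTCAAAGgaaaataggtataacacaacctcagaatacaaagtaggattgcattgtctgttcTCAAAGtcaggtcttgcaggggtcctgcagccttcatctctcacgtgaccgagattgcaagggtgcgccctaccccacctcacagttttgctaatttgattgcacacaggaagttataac
Nkd1: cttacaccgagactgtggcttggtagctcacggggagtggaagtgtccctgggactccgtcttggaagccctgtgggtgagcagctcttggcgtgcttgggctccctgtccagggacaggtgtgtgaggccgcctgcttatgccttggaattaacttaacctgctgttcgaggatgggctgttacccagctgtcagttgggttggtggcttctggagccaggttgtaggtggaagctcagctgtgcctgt
Axin2: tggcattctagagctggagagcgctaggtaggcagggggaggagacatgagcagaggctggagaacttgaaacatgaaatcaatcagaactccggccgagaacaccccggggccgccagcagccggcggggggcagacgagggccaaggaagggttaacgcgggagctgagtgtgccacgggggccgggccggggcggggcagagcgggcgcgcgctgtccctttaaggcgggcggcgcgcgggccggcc

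The later Lef1 start was the 1 window of 12 that held CTTTGA, with 2 copies. Across all 32851 windows of the same length in the table, 13.8% held it. The longer forms CTTTGAT and CTTTGAA, which both contain CTTTGA, were in 0 of the 12 windows, against 3.21% and 4.46% of all windows. These are letters in a short window and do not show where a factor binds.

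Evx1 itself was counted first in each library. Wildtype EBs had 2358, 2176 and 2400 normalized counts of Evx1 and EVX1-Δfs EBs 2354, 2516 and 2012, here and below in the order of replicates 1, 2 and 3. The groups overlapped. Because a frameshift need not alter the number of reads of a gene, these values do not check the genotype. Normalized counts throughout are reads per gene divided by 1 factor per library. The libraries held between 7597879 and 9914471 reads assigned to genes.

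Lef1 and Nkd1 fell in EVX1-Δfs EBs, each to about 67% of the wildtype level (66.9% for Lef1 and 67.4% for Nkd1). They were 2 of the 9 members called lower by limma at an adjusted p under 0.05, and 0 were called higher. Across all 13136 genes tested, 2.95% were called lower and 2.08% higher, which is 387 and 273 genes (41.4% of the calls higher, or 53.2% with upper-quartile scaling). The other 7 members, including Axin2 and Znrf3, were not called in either direction. With so few members, 2 of 9 is a description of these genes and not a result about the pathway. Of the 9 log2 fold changes, 7 were below 0, with a median of -0.17, against a median of 0.00 and 49.9% below 0 over all genes tested. An unadjusted p under 0.05 was reached by 3 members, all of them lower, where 23.1% of all genes tested reached it. edgeR and DESeq2 on the recovered reads also called 2 members lower and 0 higher. For edgeR 2.87% of all genes tested were called lower and 2.35% higher, and for DESeq2 4.45% and 2.44%. Lef1 and Nkd1 were also called with the replicate block (same-numbered libraries paired), where 1.11% of genes were called lower and 0.579% higher.

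**Figure D1:**
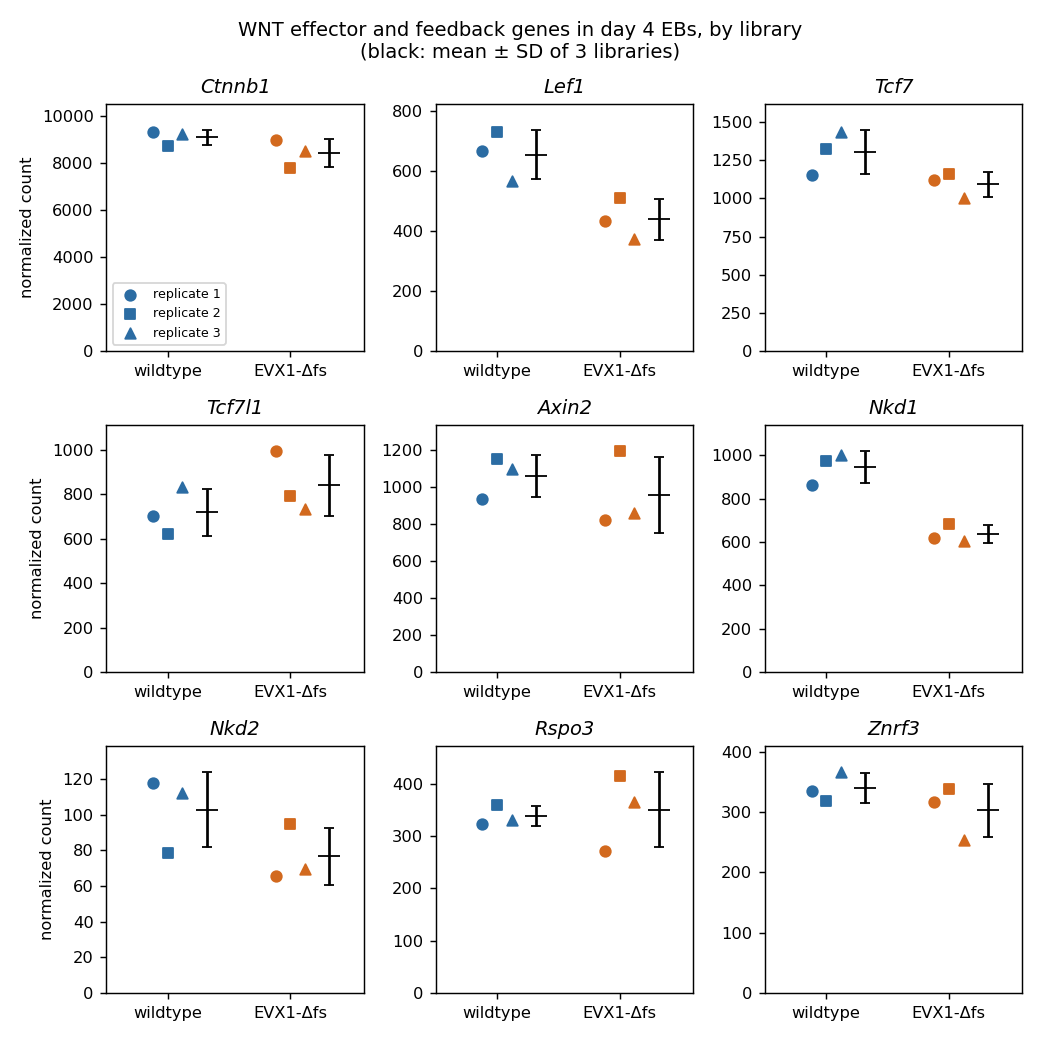
Normalized counts (vertical axes, starting at 0) of the 9 genes in each wildtype (blue) and EVX1-Δfs (orange) library; symbols mark replicates 1 to 3 and black bars the mean ± SD. The groups separate for Lef1 and Nkd1 and overlap for the other 7 genes.

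The nuclear effectors were taken first. Ctnnb1 encodes β-catenin, which links WNT receptors to transcription and also serves in cell adhesion. Its normalized counts were 9320, 8746 and 9237 in the wildtype libraries and 8977, 7783 and 8538 in the EVX1-Δfs libraries. Each EVX1-Δfs library was below its same-numbered wildtype library, but the groups overlapped. EVX1-Δfs over wildtype, this gave a log2 fold change of -0.11 (95% interval from -0.36 to 0.13, limma adjusted p = 0.607), and -0.06 without EVX1-Δfs replicate 2.

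Lef1 (chr3:130813389-130927274, plus strand, NCBIM37) encodes a TCF/LEF factor that acts mainly as an activator with β-catenin and is itself a WNT target in the streak and presomitic mesoderm. It had 664.9, 729.2 and 566.8 normalized counts in the wildtype libraries and 434.1, 509.8 and 371.6 in the EVX1-Δfs libraries, in replicate order. The groups did not overlap, which was true of 14.7% of all genes tested in this direction. The wildtype mean was 654 ± 81.8 and the EVX1-Δfs mean 439 ± 69.2 (SD, n = 3). On the log2 scale Lef1 fell by 0.58 ± 0.14 (SE), with limma adjusted p = 0.0168. The call for Lef1 was lost when wildtype replicate 2 was left out, and likewise without EVX1-Δfs replicate 1 and without EVX1-Δfs replicate 3, at log2 fold changes of -0.50, -0.58 and -0.47 (limma adjusted p = 0.0573, 0.0578 and 0.104). Lef1 is also named by the study among the WNT genes changed in these libraries. The study tested genes across these same libraries, so no call given here, that of Nkd1 included, is independent evidence.

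Tcf7 encodes TCF1, which overlaps with LEF1 in forming paraxial mesoderm. It had 1154, 1322 and 1438 normalized counts in the wildtype libraries and 1121, 1157 and 1001 in the EVX1-Δfs libraries. The groups met at a single pair of values, since EVX1-Δfs replicate 2 exceeded wildtype replicate 1 by a few counts. On the log2 scale the difference was -0.25 (95% interval from -0.49 to -0.01, limma adjusted p = 0.193). It was -0.14 with the trends of each library with GC content and length removed, and -0.34 without wildtype replicate 1. Tcf7 overlaps A630014C17Rik on the opposite strand, and the counting used the standard settings of HTSeq, which take reads by strand.

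Tcf7l1 encodes TCF3, the family member that mostly represses its targets until β-catenin arrives and that is abundant in embryonic stem cells and epiblast. It had 702.2, 620.3 and 831.3 normalized counts in the wildtype libraries and 994.3, 790.6 and 734.7 in the EVX1-Δfs libraries. EVX1-Δfs replicate 1 was the highest of all 6, and the groups overlapped because wildtype replicate 3 exceeded the remaining EVX1-Δfs libraries. Its log2 fold change was 0.22 (95% interval from -0.05 to 0.50, limma adjusted p = 0.321). This value was 0.38 (limma adjusted p = 0.118) once the GC and length trends were removed, 0.10 without EVX1-Δfs replicate 1 and 0.12 without wildtype replicate 2. Over 12948 genes, which are not independent replicates, fold changes ran against the GC content of the exons (Spearman's rho of -0.460), and Tcf7l1 had 59.0% GC, against a median of 50.3%.

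Together with Tcf7l2, the remaining gene of the family, these factors were compared per kilobase of annotated exon, with lengths that pool all annotated transcripts. The order and shares below depend on these lengths, for example 8654 bases for Lef1 and 3323 for Tcf7l1. Undivided, their wildtype means were 654 ± 81.8 and 718 ± 106 normalized counts (SD, n = 3). Tcf7 was the most abundant in every library, with 414 to 515 normalized counts per kb in wildtype and 359 to 415 in EVX1-Δfs EBs. Tcf7l1 followed with 187 to 250 and 221 to 299, Lef1 with 65.5 to 84.3 and 42.9 to 58.9, and Tcf7l2 with 3.17 to 5.47 and 4.47 to 7.36. As a share of the summed level of the 4 genes, Tcf7l1 took 28.3% ± 2.93 in wildtype against 36.0% ± 3.30 in mutant EBs (SD, n = 3). Its share was higher in every EVX1-Δfs library (33.1% to 39.6%) than in any wildtype library (24.9% to 30.0%). Tcf7 took 61.2% ± 2.29 and 56.0% ± 2.49, and its lowest wildtype share (58.7%) was above its highest EVX1-Δfs share (57.7%). Lef1 took 9.99% ± 1.87 and 7.23% ± 0.846, with overlapping libraries. These shares are descriptions and were not tested, and shares of 1 total move against each other by construction. The summed level itself overlapped, at 705 to 835 normalized counts per kb in wildtype and 627 to 756 in EVX1-Δfs EBs.

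**Figure D2:**
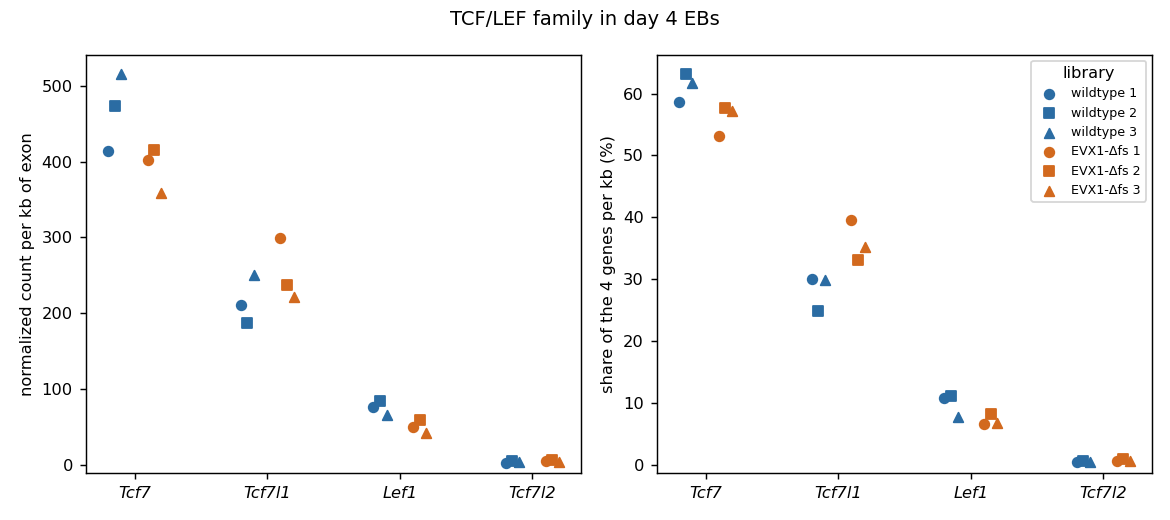
Levels of the TCF/LEF genes per kb of exon (left) and as a share of their sum in percent (right), 1 symbol per library (blue, wildtype; orange, EVX1-Δfs). The Tcf7l1 share is 33.1% to 39.6% in EVX1-Δfs and 24.9% to 30.0% in wildtype libraries. Exon lengths pool all annotated transcripts of a gene, and the shares depend on them.

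Of the feedback genes, Axin2 encodes a scaffold of the destruction complex that is induced by WNT in most tissues. Its normalized counts were 932.8, 1151 and 1095 in the wildtype libraries and 819.7, 1192 and 856.6 in the EVX1-Δfs libraries. EVX1-Δfs replicate 2 had the highest value of all 6 libraries, while the remaining EVX1-Δfs libraries had the lowest values. The log2 fold change of Axin2 was -0.16 (95% interval from -0.44 to 0.12, limma adjusted p = 0.493). Single libraries moved it, as did the GC and length trends, to -0.33 without EVX1-Δfs replicate 2, -0.06 without EVX1-Δfs replicate 1, -0.09 without EVX1-Δfs replicate 3, -0.10 without wildtype replicate 2, -0.25 without wildtype replicate 1 and -0.06 with the trends removed. Axin2 was called in none of the 16 settings tried.

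Nkd1 (chr8:91045243-91118786, plus strand, NCBIM37) encodes a Naked cuticle protein, which binds Dishevelled and limits WNT signalling inside the cell. It had 862.0, 972.5 and 1003 normalized counts in the wildtype libraries and 620.9, 684.6 and 604.1 in the EVX1-Δfs libraries. The EVX1-Δfs libraries all lay below the wildtype libraries, as for 14.7% of all genes tested. Means were 946 ± 74.2 and 637 ± 42.4 (SD, n = 3), so Nkd1 fell by 0.57 ± 0.12 (SE) on the log2 scale, with limma adjusted p = 0.00729. Nkd1 was called lower in all 16 settings, with adjusted p from 3.12e-04 (DESeq2) to 0.0440 (limma with the trends removed and the block added).

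Its relative Nkd2, which acts on the same step, was about an order of magnitude lower per kb, with 117.7, 78.8 and 112.2 normalized counts in the wildtype libraries and 65.4, 94.7 and 69.6 in the EVX1-Δfs libraries. Wildtype replicate 2 and EVX1-Δfs replicate 2 crossed, so the groups overlapped. This was a log2 fold change of -0.42 (95% interval from -0.85 to 0.01, limma adjusted p = 0.229). Between 70 and 123 reads per library stand behind these values, fewer than for any other member.

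Znrf3 encodes a transmembrane ubiquitin ligase that removes Frizzled receptors from the cell surface. Its normalized counts were 334.8, 317.7 and 366.4 in the wildtype libraries and 316.5, 338.3 and 253.5 in the EVX1-Δfs libraries. EVX1-Δfs replicate 3 stood below the remaining libraries, which overlapped. Znrf3 had a log2 fold change of -0.17 (95% interval from -0.46 to 0.11, limma adjusted p = 0.479), and -0.05 without EVX1-Δfs replicate 3.

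Rspo3 encodes a secreted R-spondin, which clears ZNRF3 and RNF43 from the membrane and so amplifies WNT signals. It had 323.4, 360.2 and 332.1 normalized counts in the wildtype libraries and 272.6, 415.0 and 365.0 in the EVX1-Δfs libraries. The EVX1-Δfs libraries spread on both sides of the wildtype ones. Rspo3 had a log2 fold change of 0.03 (95% interval from -0.27 to 0.34, limma adjusted p = 0.922), which changed sign with the processing (-0.09 with the GC and length trends removed, -0.10 without EVX1-Δfs replicate 2).

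**Figure D3:**
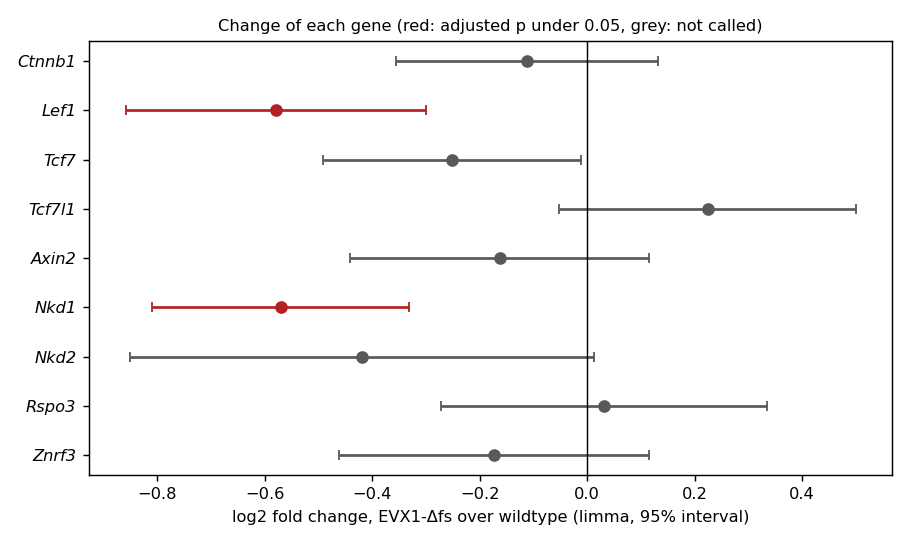
Log2 fold change of each gene, EVX1-Δfs over wildtype (horizontal axis), with its 95% interval from limma; red marks an adjusted p under 0.05. The intervals of Lef1 (-0.86 to -0.30) and Nkd1 (-0.81 to -0.33) lie below 0, as does that of Tcf7 (-0.49 to -0.01), which did not pass after adjustment.

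Levels of the 9 genes in wildtype EBs, again per kb of exon, spanned from 1785 ± 60.9 normalized counts per kb for Ctnnb1 to 21.8 ± 4.46 for Nkd2 (SD, n = 3). Tcf7 came second at 468 ± 51.3. Tcf7l1 (216 ± 32.0), Nkd1 (212 ± 16.6) and Axin2 (192 ± 20.6) followed within each other's spread. Rspo3 (141 ± 8.03), Lef1 (75.5 ± 9.45) and Znrf3 (43.0 ± 3.13) were lower, each apart from its neighbours by more than the SDs. In EVX1-Δfs EBs Nkd1 (143 ± 9.52) stood beside Rspo3 (147 ± 30.2), and Lef1 (50.7 ± 7.99) stood closer to Znrf3 (38.4 ± 5.58). These levels rest on exon lengths that pool all annotated transcripts of a gene, so a gene with many unused exons is understated.

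Whether the members moved apart from each other was examined in 4 ratios, picked after their values were seen. The log2 ratio of Nkd1 to Axin2 was -0.11, -0.24 and -0.13 in the wildtype libraries and -0.40, -0.80 and -0.50 in the EVX1-Δfs libraries, so the groups did not overlap and the difference was -0.41. The log2 ratio of Tcf7l1 to Lef1 was 0.08, -0.23 and 0.55 in the wildtype libraries and 1.19, 0.63 and 0.98 in the EVX1-Δfs libraries, a difference of 0.80 without overlap. For each of these, a two-sided exact permutation test over the 6 libraries gave p = 0.10, the smallest value that 3 libraries against 3 allow, and 0.20 after Benjamini-Hochberg adjustment over the 4 ratios. The ratios of Lef1 to Tcf7 (difference of -0.33, exact p = 0.20) and of Nkd1 to Nkd2 (difference of -0.15, exact p = 0.60) overlapped. No ratio could pass a threshold of 0.05 in this design.

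Across the 6 libraries, the genes whose log2 values were most like those of Lef1 were Zfp651, Zfp414 and Fat4, with Pearson's r of 0.995, 0.993 and 0.989. For Nkd1 they were Pcdh7, Mta3 and Chst11, with r of 0.996, 0.994 and 0.992. These are descriptions over 6 libraries, and the genes were the highest of many ranked. A correlation does not give the size of a change. In the same order, log2 fold changes were -0.20, -0.26 and -0.56 for Lef1 (limma adjusted p = 0.371, 0.259 and 0.0724). For Nkd1 they were -0.46, -0.32 and -0.40 (limma adjusted p = 0.0190, 0.0920 and 0.142). Of 10629 genes ranked, 56 had r above 0.95 with Lef1 and 143 with Nkd1.

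The rest of the pathway was described from 4 lists with 52 genes, of which 50 were tested, 9 were called lower and 1 was called higher, where 2.95% and 2.08% of all genes tested were. Their median log2 fold change was -0.12. The destruction complex and β-catenin turnover list, which holds the kinases, scaffolds and ligases that control β-catenin, had 0 of 12 genes called by limma, with log2 fold changes from -0.41 to 0.28 and a median of 0.02. The genes named from it are the 3 with the highest mean normalized counts, not divided by length. Tnks2, a tankyrase that destabilises AXIN, had means of 1984 ± 138 and 2416 ± 199 normalized counts for wildtype and EVX1-Δfs (SD, n = 3), which differed by 0.28 on the log2 scale (limma adjusted p = 0.128), and by 0.02 with the GC and length trends removed. The values for Tnks and Gsk3a, a kinase that marks β-catenin, were 0.12 and -0.20 (limma adjusted p = 0.581 and 0.314). Tnks was at -0.01 without wildtype replicate 3 and 0.20 without wildtype replicate 1, and Gsk3a was at -0.02 with the trends removed and -0.11 without EVX1-Δfs replicate 3.

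Of 17 co-regulators of the TCF/LEF complex, 2 were called lower and 0 higher (2.95% and 2.08% of all genes tested), with a median of -0.17. Bcl9l, which bridges β-catenin to PYGO proteins, was at 1162 ± 120 normalized counts in wildtype against 833 ± 62.5 (SD, n = 3) and fell by 0.48 on the log2 scale (limma adjusted p = 0.0215). Tle3, a Groucho co-repressor of TCF factors, was at 2166 ± 171 against 1617 ± 63.8 (SD, n = 3) and fell by 0.42 (limma adjusted p = 0.0294). An activating and a repressing partner were thus both lower. Neither kept its call with the replicate block (limma adjusted p = 0.0564 for Bcl9l and 0.0638 for Tle3, at the same log2 fold changes) or with the GC and length trends removed (log2 fold change of -0.31 and limma adjusted p = 0.140 for Bcl9l, and -0.38 and 0.0511 for Tle3). Bcl9l was also not called in 4 of the 6 fits that left out a library (all except those without wildtype replicate 3 and without EVX1-Δfs replicate 2), and Tle3 in 5 of 6 (all except the one without wildtype replicate 3). The chromatin remodeller Smarca4 had 5894, 6045 and 6152 normalized counts in wildtype and 4964, 4748 and 4504 in EVX1-Δfs libraries. Smarca4 did not overlap between groups, which was true of 14.7% of all genes tested in this direction. At -0.35 on the log2 scale it passed with DESeq2 (adjusted p = 0.00816) but not with limma (adjusted p = 0.0649). Ctbp1 and Hdac1 had -0.28 and -0.13 (limma adjusted p = 0.131 and 0.519). Ctbp1 was at -0.14 with the trends removed, and Hdac1 at -0.02 without wildtype replicate 3 and -0.21 without wildtype replicate 1.

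The R-spondin, LGR and RNF43 module, which acts with Rspo3 and Znrf3, had 5 of 7 genes tested and 0 called by limma, with a median of 0.17. The R-spondin receptor Lgr4 had 626 ± 59.1 against 711 ± 127 normalized counts (SD, n = 3) and a log2 fold change of 0.17, which was 0.05 with the trends removed, 0.04 without EVX1-Δfs replicate 1 and 0.30 without EVX1-Δfs replicate 2. Rspo1 and Rnf43 were at 60.4 ± 15.4 and 44.9 ± 10.5 in wildtype, with log2 fold changes of 0.26 and 0.09. The limma adjusted p of these genes were 0.456, 0.497 and 0.856. Rspo1 was at 0.44 with the trends removed, 0.13 without wildtype replicate 2 and 0.46 without wildtype replicate 3. Rnf43 ran from -0.10 without wildtype replicate 3 to 0.23 without wildtype replicate 1.

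Of 16 other genes known as WNT targets, 7 were called lower and 1 higher (2.95% and 2.08% of all genes tested), with a median of -0.53. Of the called genes Msgn1, a regulator of presomitic mesoderm, fell most, from 200.9, 223.9 and 203.8 normalized counts in the wildtype libraries to 55.1, 111.6 and 80.04 in the EVX1-Δfs libraries. On the log2 scale it fell by 1.39 ± 0.20 (SE), with limma adjusted p = 3.00e-04. The proto-oncogene Myc and the membrane WNT inhibitor Apcdd1 came next among called genes with -0.80 and -0.74 (limma adjusted p = 0.00358 and 0.00903), then the caudal gene Cdx2 with -0.70 and the streak gene Brachyury (T) with -0.58 (0.00903 and 0.0122). Ccnd1 and Mycn, which promote cell growth and division, had -0.51 each (limma adjusted p = 0.0107 and 0.0372). The cyclin Ccnd2 went the other way, with 665.9, 695.5 and 605.7 normalized counts in wildtype and 1114, 1106 and 1141 in EVX1-Δfs libraries, and rose by 0.77 on the log2 scale (limma adjusted p = 2.88e-04). The uncalled targets with the highest mean counts were Sp5 (log2 fold change of 0.19), Tnfrsf19 (0.15) and the secreted inhibitor Dkk1 (-0.04), with limma adjusted p = 0.419, 0.538 and 0.933. Over the 16 settings these ranged from 0.04 to 0.39 for Sp5, from 0.03 to 0.28 for Tnfrsf19 and from -0.24 to 0.21 for Dkk1. Sp5 was lowest without wildtype replicate 2 and highest with the trends removed, Tnfrsf19 was lowest without wildtype replicate 1 and highest without EVX1-Δfs replicate 1, and Dkk1 was lowest without wildtype replicate 1 and highest without EVX1-Δfs replicate 1. Other uncalled targets had more negative values, of which 3 are named here after their values were seen. The caudal genes Cdx1 and Cdx4 were at 15.3 ± 3.29 and 15.9 ± 4.95 normalized counts in wildtype. They had log2 fold changes of -1.13 and -1.10 without overlap between groups, and Sp8 had -0.55 (limma adjusted p = 0.117, 0.153 and 0.112). Such separation in this direction was found in 14.7% of all genes tested. In the EVX1-Δfs libraries Cdx1 rested on 6, 6 and 7 reads and Cdx4 on 4, 10 and 7. The call of T did not hold with the replicate block (limma adjusted p = 0.0566, at the same log2 fold change) or without EVX1-Δfs replicate 1 (-0.50, limma adjusted p = 0.0747). Mycn did not hold its call with the trends removed (0.125) or in any of the fits without wildtype replicate 2 or 3 or without EVX1-Δfs replicate 1 or 3. Without EVX1-Δfs replicate 1, Ccnd1 and Apcdd1 were not called either, at -0.49 and -0.62 (limma adjusted p = 0.0546 and 0.0578), so that 3 genes over the 4 lists (Msgn1, Myc and Cdx2) were called lower. The study names Cdx2 among its changed genes. Because it tested these same libraries, none of the calls in these lists is independent evidence.

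**Figure D4:**
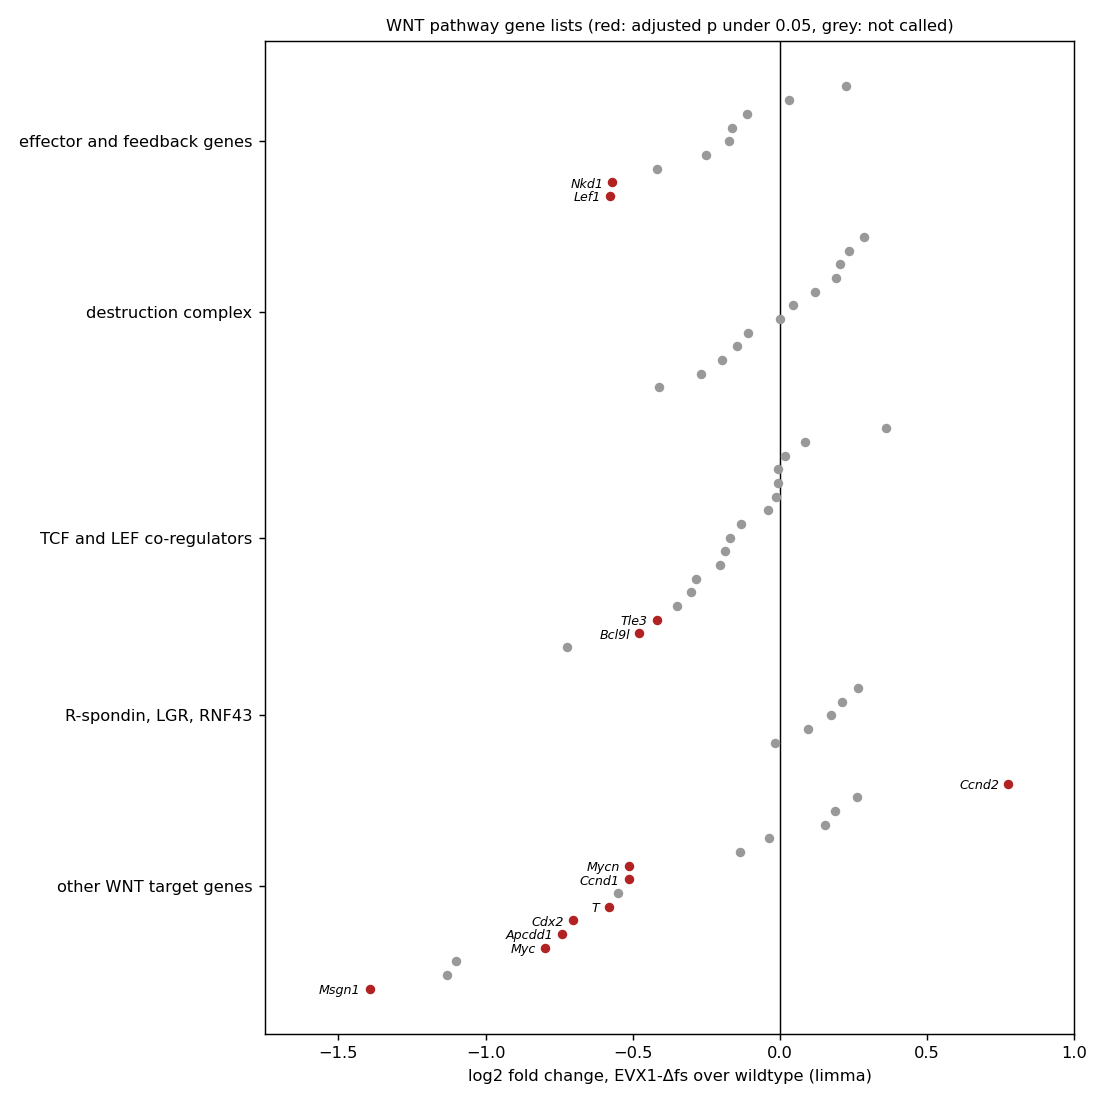
Log2 fold changes (horizontal axis, EVX1-Δfs over wildtype) of the 9 effector and feedback genes and of the tested genes of 4 other WNT pathway lists, 1 point per gene, red where the adjusted p was under 0.05. Called genes lie in the effector and feedback set (Nkd1, Lef1), the co-regulators and the WNT targets, and 0 lie in the destruction complex and R-spondin lists.

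Marker genes of cell types moved with genotype in the same libraries, and their counts are to be read against the 2.95% lower and 2.08% higher over all genes tested. These calls are from the limma fit that kept the GC and length trends, and fold changes ran against GC content (Spearman's rho of -0.460). In the limma fit on values freed of both trends, 180 genes were lower and 99 higher. Msgn1 and T stayed lower in that fit, at -1.29 and -0.49 (limma adjusted p = 8.89e-04 and 0.0277). That fit also covered other called markers, whose values in it are not given here, so their calls are not shown to hold without the trends. Of 10 markers of the primitive streak and nascent mesoderm, 6 were called lower and 0 higher, and their summed normalized count was 15242 to 18606 in wildtype and 10335 to 13578 in EVX1-Δfs libraries. Of 9 paraxial mesoderm markers, 4 of the 6 tested were called lower, with sums of 876 to 1010 and 482 to 594, and Meox1, Hes7 and Foxc2 stayed under 10 normalized counts. Of 9 haematoendothelial markers, 3 of the 8 tested were called lower (sums of 3100 to 4140 and 1837 to 2086). Among 9 epiblast and pluripotency markers 1 was called higher and 0 lower, and the sums, in which Pou5f1 weighs most, overlapped (11624 to 17230 and 13547 to 16228). The list's median log2 fold change was 0.40, with 7 of 9 above 0. Of the 9, Nanog, Sox2, Zfp42, Esrrb and Fgf5 had log2 fold changes from 0.40 to 0.61. Their limma adjusted p ran from 0.0293 (Fgf5, the called gene) to 0.0559. Otx2, Utf1, Pou5f1 and Dppa5a were at 0.39, 0.03, -0.04 and -0.19 (limma adjusted p = 0.128, 0.938, 0.896 and 0.300). Of 7 markers of anterior visceral and definitive endoderm, 3 were called higher and 1 lower, and the sums overlapped (762 to 1075 and 939 to 1379). This list had a median log2 fold change of 0.04, with 3 of 7 below 0. Cer1 rose most, from 33.9 ± 14.3 to 377 ± 72.8 normalized counts (SD, n = 3), and so weighs on the EVX1-Δfs sums. Visceral endoderm and neurectoderm were poorly represented, with 5 of 7 and 4 of 6 markers under 10 normalized counts in every library. None of these markers had 0 reads in all 6 libraries. T and Msgn1 are counted both here and among the WNT targets. The study names Mixl1, Mesp1, Eomes, Snai1, Tbx6, Kdr, Cxcr4, Sox17, Foxa2, Cer1 and Nanog among its changed genes in these libraries. The marker counts are therefore not independent evidence. The part of these markers in the fall of Lef1 and Nkd1 was not tested, and in such bulk samples fewer cells of a type and less RNA per cell cannot be told apart.

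**Figure D5:**
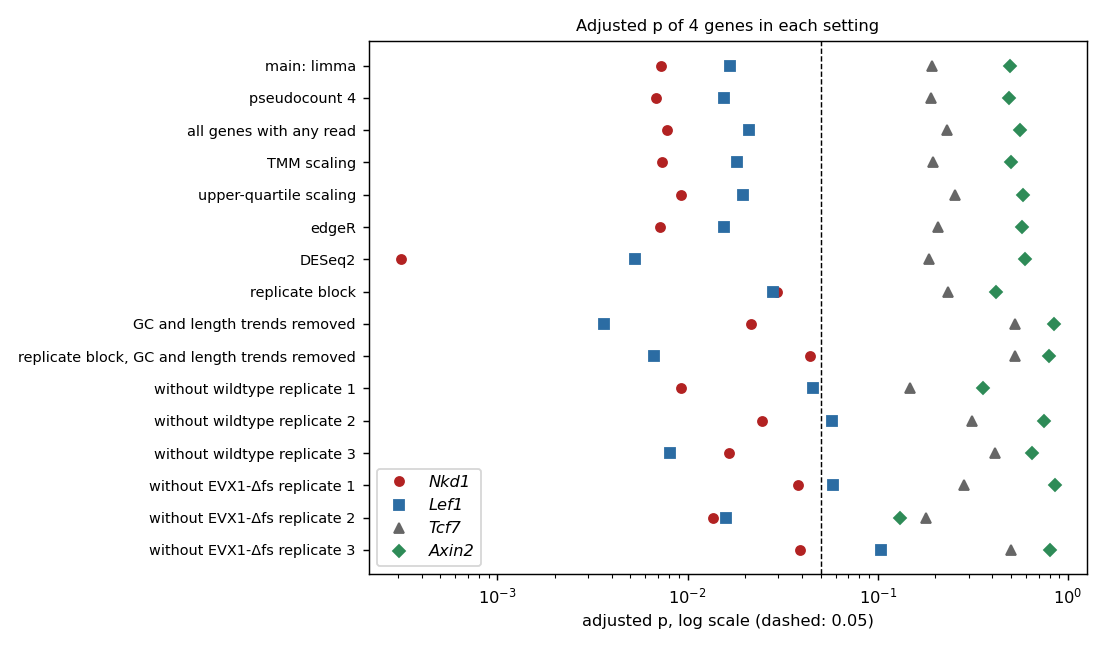
Adjusted p (horizontal axis, log scale) of Nkd1, Lef1, Tcf7 and Axin2 in each of the 16 settings, with the threshold of 0.05 dashed. Nkd1 lies left of the line in all 16 settings, Lef1 in 13, and Tcf7 and Axin2 in 0.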

How the data were processed

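RNA-seq was measured in 3 wildtype and 3 EVX1-Δfs EB libraries, grouped by their labels. As the study's methods state, mRNA was selected and sequenced on an Ion Proton. Reads were mapped to mm9 with TopHat2 and then TMAP, and HTSeq in its standard settings, which count by strand, gave reads for each gene. Tool versions and the annotation are not given in the sources used here. The deposited values are a signal that is never negative: reads per gene divided by 1 factor per library. Of the values, 100% were whole multiples of 1 read (within 0.001 reads), so reads could be recovered.

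Log2(normalized count + 1) was fitted with limma 3.58.1 (trend) for 13136 genes with at least 10 normalized counts in at least 3 libraries, with Benjamini-Hochberg adjustment over all of them. This scale understates changes of low genes. On the recovered reads, edgeR 4.0.16 (quasi-likelihood, TMM) called 309 genes higher and 378 lower, and DESeq2 1.42.0 called 284 and 517. Scripts ran in R 4.3.3. The fits were also run on simulated data, with changes larger than those of the members and no GC trend. That run does not bear on calls of the members' size. GC content and exon length came from NCBIM37 with GENCODE vM1 (94.0% of genes placed), and their trends were removed by splines with 5 degrees of freedom. The rule for naming genes took all members, and from each other WNT pathway list all called genes and the 3 most abundant uncalled ones. Tcf7l2, Cdx1, Cdx4, Sp8, the genes most like Lef1 and Nkd1, and the markers were named outside this rule. The members, lists and tests were chosen with earlier results of these data known.

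Per the series' design text, the differentiations of both genotypes were run side by side, each on its own day, so the replicate number was taken to pair libraries. Deviations from the group means correlated at 0.111, 0.00933 and -0.101 for replicates 1, 2 and 3 across 13136 genes. Intervals from limma cover the spread between these libraries.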

Additional observations from a re-analysis of the deposited data

How the results depend on the processing

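The counts of called genes (all, members and other WNT pathway genes) were recomputed in 15 other settings. So were the log2 fold changes of the members, Evx1 and the pathway genes named by rule. Group overlaps, shares, ratios, correlations, and counts per pathway or marker list were not recomputed. Under limma, the replicate block left 76 genes higher and 146 lower. With the GC and length trends removed it called 99 and 180, and with both 67 and 129, with 5 of the other WNT pathway genes lower. Leaving out 1 library gave 77 (without EVX1-Δfs replicate 3) to 332 genes higher and 138 (without EVX1-Δfs replicate 1) to 355 lower. The higher count was also over 1.5 times smaller without wildtype replicate 3 (133) or EVX1-Δfs replicate 1 (89), and the lower count without wildtype replicate 1 (232), wildtype replicate 3 (240) or EVX1-Δfs replicate 3 (142). In these fits 1 to 2 members and 3 to 8 other WNT pathway genes were lower. These fits have fewer libraries, and the cause of the other shifts was not tested. Of the 135 alternative values of members, 127 kept direction and side of the threshold, 3 (Lef1) were weaker and 5 (Rspo3) were reversed. The block changed no call of a member. Of the other named genes, it changed those of Bcl9l, Tle3 and T. Rspo3 was at -0.0855 after removal of the trends (block or no block), and from -0.100 to 0.202 without 1 library. Evx1, near 0, was at 0.0126 with upper-quartile scaling, 0.000334 with edgeR, 0.176 after removal of the trends (block or no block), and from -0.0858 to 0.0755 without 1 library. Without 1 library, Tnks ranged from -0.0120 to 0.195, Rnf43 from -0.103 to 0.234 and Dkk1 from -0.238 to 0.208. Depth limits Nkd2 most, with 70 to 123 reads per library.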
